A study of Mus musculus with 6 samples.

Results

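Insulin-rich barcodes with a high mitochondrial share were taken from single-cell RNA-Seq libraries of mouse pancreatic islets. A barcode, the tag that marks the transcripts of 1 droplet, was a member when it held at least 500 detected genes and 2000 UMIs (unique transcript molecules), when more than 10% and at most 40% of its UMIs came from mitochondrially encoded genes (mt share), and when *Ins1* and *Ins2* together made up at least 10% of its UMIs. Of 43445 barcodes in 6 libraries, 6372 (14.7%) met this rule and are called high-mt barcodes here. The insulin-rich barcodes with an mt share of 10% or less numbered 15907 and served as the comparison (low-mt barcodes).

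Each library came from the islets of 1 mouse of the C57BL/6J background (C57/BL6 in the labels) at an age of 12 to 14 weeks, and 3 mice were WT and 3 were β14-3-3ζ–KO. In the β14-3-3ζ–KO mice, exon 4 of *Ywhaz*, the gene for the scaffold protein 14-3-3ζ, was flanked by loxP sites and deleted by Ins1-CreThor, which places Cre in the *Ins1* gene and so drives it in β cells. The WT mice were littermates that carried Cre as well, so every mouse of both groups had the Cre allele. Islets were cultured overnight, dispersed with trypsin, and passed through a column that removes dead cells before droplets were made.

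β Cells secrete insulin when glucose metabolism raises ATP, which closes ATP-sensitive potassium channels. That ATP comes from oxidative phosphorylation, whose complexes are built from a few proteins encoded in mitochondrial DNA and many encoded in the nucleus, which are translated on cytosolic ribosomes and imported. In single-cell RNA-Seq, the mt share of a barcode is widely used to filter cells, because a cell that has lost cytoplasmic RNA keeps the transcripts enclosed in mitochondria, whereas an intact cell rich in mitochondria also has a high share. The comparison here asked how the nuclear transcripts of the high-mt barcodes differed from those of low-mt barcodes of the same library, and whether either class depended on genotype.

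The high-mt class held 375, 1346, and 802 barcodes in WT libraries 1 to 3 and 625, 1984, and 1240 in β14-3-3ζ–KO libraries 1 to 3. The low-mt class held 952, 4733, and 1517 in WT and 1672, 4671, and 2362 in β14-3-3ζ–KO libraries. Both libraries numbered 2 stood apart, with the most insulin-rich barcodes and the most B cell transcripts. Shallow low-mt barcodes were not confined to them. Under 5000 UMIs lay 1.37%, 71.4%, and 25.3% of low-mt barcodes in WT and 9.27%, 35.8%, and 44.4% in β14-3-3ζ–KO libraries. An mt share below 1% was found in 2625 of 4733 low-mt barcodes in WT library 2. In β14-3-3ζ–KO libraries 2 and 3 it was found in 388 of 4671 and 783 of 2362. Libraries held 74083947 to 98294915 UMIs in all, and 70 high-mt barcodes (1.10%) had a sequence that also occurred in another library. Results that rest on the libraries numbered 2 are given below with and without them.

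The members were selected on their mt share, insulin share, UMIs, and genes, which are therefore given without a test. Over all high-mt barcodes, the median mt share was 19.7% (quartiles 13.6% and 29.0%) and the median insulin share was 20.1% (quartiles 14.3% and 28.4%). Median mt shares by library were 14.8%, 21.5%, and 19.5% in WT and 16.5%, 19.9%, and 22.5% in β14-3-3ζ–KO. High-mt barcodes were also mostly shallow. Their median was 5209.5 UMIs (quartiles 3519.75 and 17169.2) and 1543.5 genes. By library, median UMIs were 21651, 5020.5, and 6677 in WT and 9064, 4534.5, and 4572.5 in β14-3-3ζ–KO, against 42920.5, 3114, and 26877 and 28783.5, 5988, and 17435.5 in low-mt barcodes. The high-mt barcodes were thus the shallower class in every library but WT library 2. The rule cut a continuous range rather than a gap. The 605 insulin-rich barcodes just inside the low-mt side (mt share from 9% to 10%) had a median of 22380 UMIs and a median insulin share of 27.3%, and the 524 just above 10%, up to 11%, had 20215.5 UMIs and 27.3%.

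**Figure D1:**
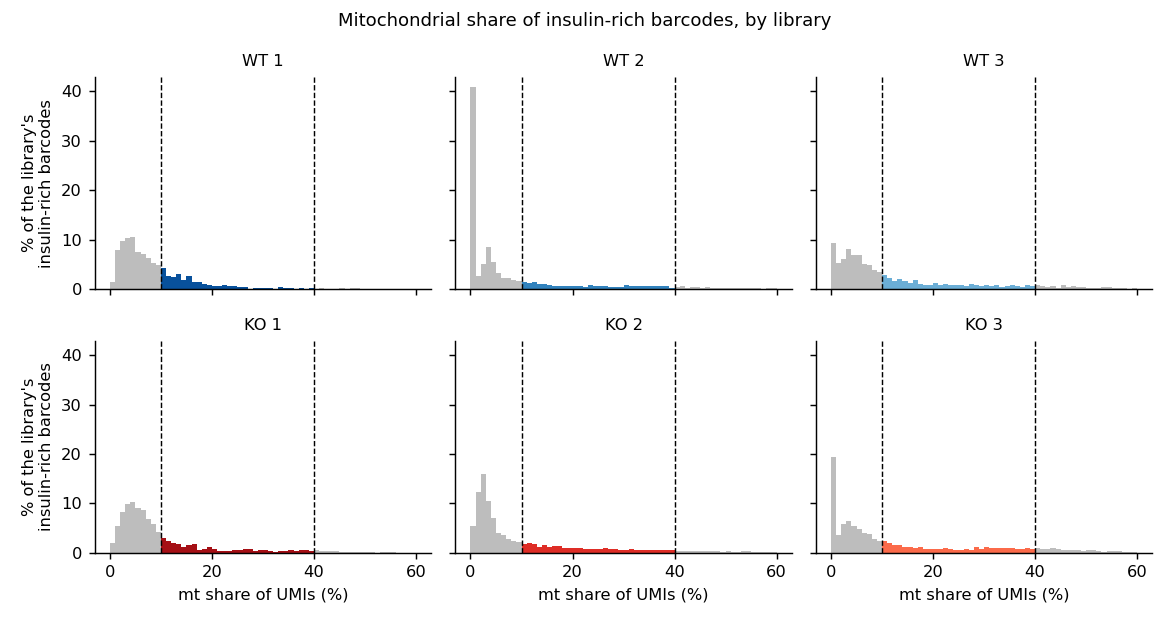
Mt share of insulin-rich barcodes in each of the 6 libraries, as the percent of the library's insulin-rich barcodes on the vertical axis against percent of UMIs from mitochondrially encoded genes on the horizontal axis. Bars are 1 percentage point wide, coloured bars between the dashed lines at 10% and 40% are the high-mt class, and no gap lies at 10%; WT library 2 has the tallest peak, at an mt share below 1%.

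The label of an insulin-rich class with mitochondrial transcripts held as far as its markers could show, since 4 of the 5 were used by the rule. *Ins2* made up 17.9% to 22.7% of all UMIs in high-mt barcodes across libraries and 26.2% to 38.1% in low-mt barcodes, and *Ins1* 3.27% to 6.69% and 5.13% to 10.2%. *mt-Co1*, a cytochrome c oxidase subunit, made up 1.88% to 2.54% and 0.53% to 0.80%, and *mt-Nd1*, a complex I subunit, 0.71% to 1.07% and 0.20% to 0.28%. *Iapp*, the islet amyloid polypeptide that β cells secrete with insulin, was not part of the rule and made up 2.55% to 3.14% and 2.99% to 3.58%. Insulin transcripts in a droplet do not by themselves mark a β cell. In the barcodes that passed the count minimums but held less than 10% insulin, insulin was still a median of 1.67% to 6.02% of UMIs by library. Other hormones (*Gcg*, *Sst*, *Ppy*, and *Pyy* together at 1% or more of UMIs) were found in 10.7%, 24.2%, and 26.8% of high-mt barcodes in WT and 29.8%, 44.5%, and 22.8% in β14-3-3ζ–KO, and in 9.56% to 62.5% of low-mt barcodes.

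For nuclear genes, UMIs were summed per library and class, and the 12 sums were compared within libraries by edgeR's quasi-likelihood test. Mitochondrially encoded genes, *Ins1*, and *Ins2* were left out of the sums, since the rule used them. Levels are given as CPM, UMIs of a gene per 1000000 UMIs of all tested genes after TMM scaling, and a gene was called when its Benjamini-Hochberg adjusted p (FDR) lay under 0.05 and its log2 fold change was above 0.1 or below -0.1. Because each value is a share of a summed total, less of a transcript per cell and fewer cells that hold it cannot be told apart. Of 7565 genes tested, 2389 (31.6%) were higher and 2518 (33.3%) lower in high-mt barcodes, and 4195 of the 4907 called genes went the same way in all 6 libraries. These shares over all genes are the background for each count of list members below. Without TMM scaling the split was 3050 higher and 1760 lower. The median log2 fold change over all genes was -0.01, so values are close to changes relative to the typical gene.

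Nuclear long noncoding RNAs had the highest median of the gene lists. Of 11 tested, 9 were higher and 1 was lower, with a median log2 fold change of 0.73, beside -0.01 over all genes and 31.6% of genes called higher. *Malat1* and *Neat1* are noncoding RNAs retained in the nucleus, and *Meg3* is an imprinted noncoding RNA abundant in β cells. *Malat1* (chr19:5795690-5802672, GRCm38) was at 32552, 50341, and 42002 CPM in the high-mt barcodes of WT libraries 1 to 3 and 35694, 34925, and 41846 in those of β14-3-3ζ–KO libraries 1 to 3. In the low-mt barcodes it was at 26414, 24018, and 22478 CPM and 22695, 23675, and 22665. Every high-mt value lay above every low-mt value, and *Malat1* rose by 0.73 (SE 0.143, FDR 0.000743, edgeR). *Meg3* (chr12:109541001-109571726) was at 3291, 4748, and 4918 CPM in WT and 3553, 4248, and 4486 in β14-3-3ζ–KO high-mt barcodes, against 1819, 2027, and 2604 and 2210, 1886, and 2417 in low-mt barcodes. The classes did not overlap here either, and the log2 fold change of *Meg3* was 0.96 (SE 0.0824, FDR 1.95e-06). *Neat1* rose by 0.66 (FDR 2.04e-06) and *Kcnq1ot1*, an antisense noncoding RNA of an imprinted cluster, by 0.80. The 1 lower member was *Gas5*, a host gene of small nucleolar RNAs, at -0.49; it was singled out after its value was seen.

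The 10 largest rises among genes with at least 50 CPM and the same direction in every library held *Firre*, another nuclear noncoding RNA (log2 fold change 1.19), and *Meg3*, beside *Gm26917*, *Rgs11* (1.11), *Mlxipl* (1.04), *Zim1* (0.96), *Fam193b* (0.96), *B830012L14Rik* (0.92), *Cacna1a* (0.91), and *AC149090.1* (0.90). *Mlxipl* encodes ChREBP, the transcription factor that responds to glucose. It was at 432, 427, and 494 CPM in WT and 467, 371, and 478 in β14-3-3ζ–KO high-mt barcodes, and at 227, 169, and 263 and 268, 155, and 241 in low-mt barcodes, without overlap (FDR 7.39e-07). *Cacna1a* encodes the pore of a voltage-gated calcium channel. *Zim1* is an imprinted zinc finger gene, and *Peg3*, its imprinted neighbour, rose by 0.71. The largest rise, *Gm26917*, was at 314, 432, and 414 and 491, 422, and 434 CPM in high-mt and 183, 161, and 188 and 194, 153, and 134 CPM in low-mt barcodes (log2 fold change 1.31, SE 0.0906, FDR 8.01e-07). Its annotated position (chr17:39843013-39846341) ends 13 bases before a ribosomal RNA gene, *Rn18s-rs5* (chr17:39846354-39848202), and whether its reads are ribosomal RNA was not tested.

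Nuclear genes for mitochondrial proteins lost share while mitochondrial transcripts, by the rule, gained it. Of 79 nuclear-encoded subunits of oxidative phosphorylation (OXPHOS) tested, 74 were lower and 0 higher, with a median log2 fold change of -0.44 and library medians from -0.49 to -0.35. *Cox8a*, a cytochrome c oxidase subunit, was at 450, 603, and 560 CPM in WT and 538, 770, and 596 in β14-3-3ζ–KO high-mt barcodes, against 757, 878, and 776 and 759, 1151, and 795 in low-mt barcodes. It was lower in the high-mt class of all 6 libraries, although the ranges met because the libraries numbered 2 were highest in both classes (log2 fold change -0.54, FDR 3.39e-06). *Uqcrq*, a complex III subunit, fell by 0.46, and the ATP synthase subunits *Atp5l*, *Atp5g1*, and *Atp5e* had log2 fold changes of -0.39, -0.41, and -0.30. *Ndufa4* was at -0.33. The largest fall on this list was *Cox6a2* at -0.76, and *Ndufs1*, a core subunit of complex I with a long transcript, was at 0.07 (FDR 0.129); both were picked out after their values were seen.

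Mitochondrial ribosomal proteins, assembly factors, and carriers were also mostly lower. Of 73 mitochondrial ribosomal proteins tested, 60 were lower and 1 was higher (median -0.38). *Mrps33*, *Mrps21*, and *Mrpl52* had log2 fold changes of -0.49, -0.42, and -0.45, and the 1 higher member was *Mrpl37* (0.26), named for its direction. Respiratory chain assembly factors gave 22 lower and 1 higher of 29 (median -0.33). *Coa3*, *Cox14*, and *Cox17*, which help build cytochrome c oxidase, were at -0.53, -0.50, and -0.33, and *Uqcc2*, which helps build complex III, at -0.19 (-0.11 and not called without TMM scaling). ADP/ATP carriers, VDACs, and the calcium uniporter gave 9 lower and 0 higher of 13 (median -0.21). The ADP/ATP carrier *Slc25a4* and the phosphate carrier *Slc25a3* fell by 0.37 and 0.38, and *Smdt1*, a regulator of the calcium uniporter, fell by 0.53. Among 15 mitochondrial chaperones and proteases, 6 were lower and 3 higher (median -0.07, and 0.0139 without TMM scaling), with *Hspe1* at -0.62, its partner chaperone *Hspd1* at -0.40, and *Hspa9* at -0.07 (FDR 0.202). Over all genes, 33.3% were lower and 31.6% higher. Among tested genes whose longest annotated transcript was 183 to 2005 bases, however, 76.1% were lower and 4.89% higher. *Mrps33*, *Mrps21*, and *Mrpl52* lie in that range, at 1107, 488, and 856 bases.

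Genes that maintain and read mitochondrial DNA went both ways. Of 12 tested, 4 were higher and 6 lower (median -0.08), beside 31.6% higher and 33.3% lower over all genes. This median lay above 0 without TMM scaling (0.00495). *Grsf1*, which binds mitochondrial RNA, was lower (-0.23, FDR 0.000269). Of 18 genes of mitochondrial fusion, fission, and mitophagy, 4 were higher and 9 lower (median -0.04, and 0.0416 without TMM scaling). *Fis1*, a fission adaptor, and the autophagy genes *Map1lc3b* and *Sqstm1* had log2 fold changes of -0.39, -0.55, and -0.46.

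Cytosolic ribosomal proteins, which build the ribosomes that translate nuclear transcripts, were lower without exception. All 79 tested were lower in high-mt barcodes, beside 33.3% of all genes, with a median log2 fold change of -0.61 and library medians from -0.95 (β14-3-3ζ–KO library 2) to -0.39 (β14-3-3ζ–KO library 3). *Rpl13* was at 1819, 1922, and 1981 CPM in WT and 2160, 2883, and 2207 in β14-3-3ζ–KO high-mt barcodes, and at 2500, 2966, and 2430 and 2650, 5329, and 2664 in low-mt barcodes. It was lower in the high-mt class of each library (log2 fold change -0.47, FDR 0.000489). *Rpl41* and *Rps24* had log2 fold changes of -0.50 and -0.63. Ribosomal protein genes have many processed pseudogenes, so reads of single members may be split between copies.

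**Figure D2:**
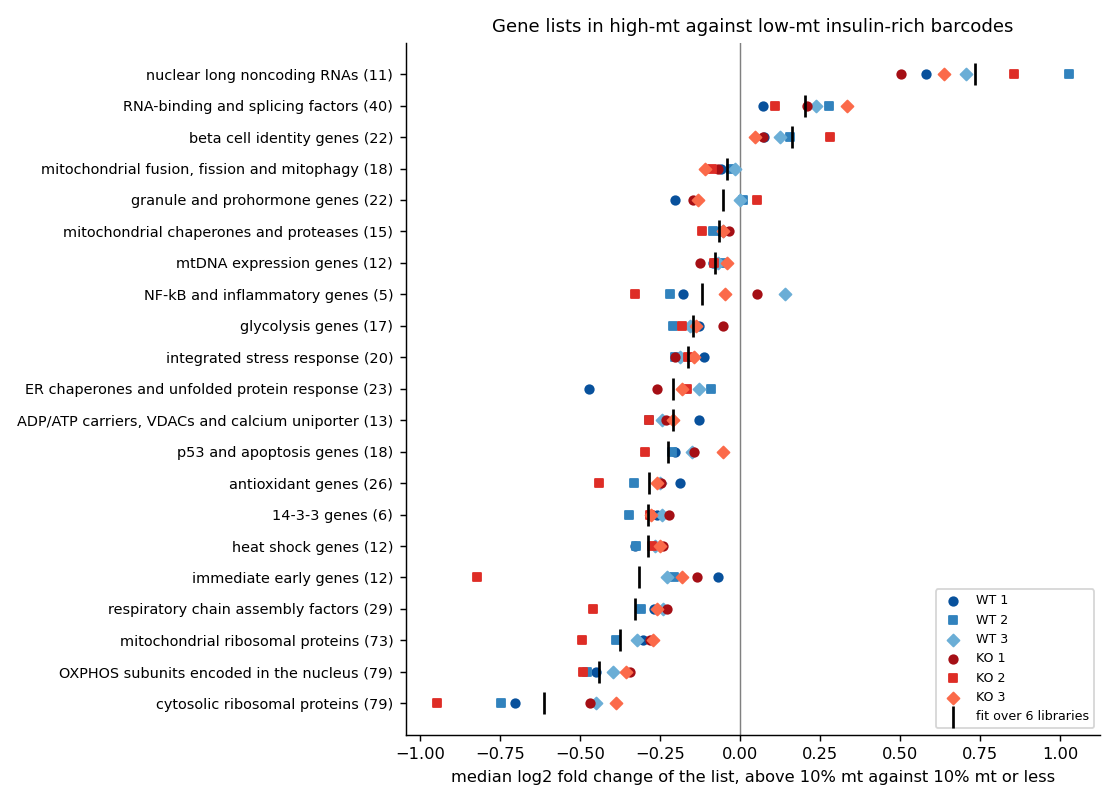
Median log2 fold change, high-mt against low-mt barcodes, of each gene list (horizontal axis, log2 scale), with 1 point per library and a black bar for the fit over all 6, and the number of genes tested after each name. Cytosolic ribosomal proteins (-0.61), OXPHOS subunits (-0.44), and mitochondrial ribosomal proteins (-0.38) lie below 0 in all 6 libraries, and nuclear long noncoding RNAs (0.73) above 0 in all 6.

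β Cell identity genes were more often higher than lower, while *Iapp* was lower. Of 22 tested, 12 were higher and 2 lower, beside 31.6% higher and 33.3% lower over all genes. The median was 0.16, with all 6 library medians above 0, from 0.05 to 0.28. *Abcc8*, the sulfonylurea receptor subunit of the ATP-sensitive potassium channel, was at 744, 825, and 854 CPM in WT and 783, 700, and 818 in β14-3-3ζ–KO high-mt barcodes, against 511, 527, and 580 and 593, 466, and 592 in low-mt barcodes. The classes did not overlap (log2 fold change 0.53, SE 0.0459, FDR 1.95e-06). The incretin receptor *Glp1r* was at 0.24 and the transcription factor *Rfx6*, picked out after its value was seen, at 0.54. The transcription factors *Mafa*, *Pdx1*, and *Nkx6-1* and the glucose transporter *Slc2a2* were not called, at -0.05 (FDR 0.459), -0.01 (FDR 0.896), -0.03 (FDR 0.537), and 0.03 (FDR 0.629). Of these, *Pdx1*, *Nkx6-1*, and *Slc2a2* were named outside the rule for named genes. *G6pc2*, which that rule names, was lower (-0.13, FDR 0.0242, edgeR), in 5 of 6 libraries. *Iapp* was at 50735, 46590, and 47875 CPM in WT and 49010, 49798, and 47334 in β14-3-3ζ–KO high-mt barcodes, and at 74432, 61388, and 64785 and 65028, 61348, and 61986 in low-mt barcodes. Although the classes did not overlap, its log2 fold change of -0.41 (SE 0.147, FDR 0.0256) passed narrowly. The FDR was 0.0604 to 0.0731 when any 1 of WT libraries 1, 2, and 3 and β14-3-3ζ–KO libraries 1 and 3 was left out.

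Of 22 granule and prohormone genes, 3 were higher and 10 lower (median -0.05), beside 31.6% higher and 33.3% lower over all genes. The median was 0.47 under 10000 UMIs in both classes and 0.0288 without TMM scaling. *Pcsk2*, a convertase that matures insulin, was at 0.08 (FDR 0.397), and *Ptprn2*, a granule membrane protein, rose by 0.58, the latter picked out after its value was seen. RNA-binding and splicing factors gave 23 higher and 8 lower of 40 (median 0.20). *Luc7l2* and *Son*, both factors of splicing, rose by 0.55 and 0.41, while *Ddx5* (0.09, FDR 0.121) and *Rbm39* (0.12, FDR 0.0625) were not called. *Pnisr* (0.66) and *Hnrnpa1* (-0.56), picked out after their values were seen, stood at the ends of that list.

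Stress and death genes were more often lower than higher. Of 18 p53 and apoptosis genes, 10 were lower and 1 higher (median -0.23), beside 33.3% lower and 31.6% higher over all genes. *Cdkn1a*, the p53 target that arrests the cell cycle, was at 158, 82.6, and 89.4 CPM in WT and 112, 82.3, and 114 in β14-3-3ζ–KO high-mt barcodes, against 327, 141, and 176 and 211, 132, and 182 in low-mt barcodes (log2 fold change -0.85, FDR 7.39e-07). It was lower in the high-mt class of each library. *Bax*, which permeabilizes the outer mitochondrial membrane, fell by 0.48 and *Ccng1* by 0.34. Heat shock genes gave 10 lower and 0 higher of 12 (median -0.29), with *Hspa8* at -0.39 and *Hsp90aa1* at -0.31. Antioxidant genes gave 22 lower and 0 higher of 26 (median -0.28). Metallothionein *Mt1* was at -0.41, *Prdx1* at -0.37, and *Gpx4* at -0.24, while the metallothionein *Mt2* was not called (-0.08, FDR 0.295). *Hmox1*, at -0.86, was picked out after its value was seen. The integrated stress response list gave 11 lower and 2 higher of 20 (median -0.16), with *Atf4* and *Nupr1* both at -0.21, the latter at -0.12 and not called without TMM scaling. Immediate early genes gave 8 lower and 1 higher of 12 (median -0.32), with library medians from -0.82 in β14-3-3ζ–KO library 2 to -0.07 in WT library 1, and a median of -0.13 without β14-3-3ζ–KO library 2.

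ER chaperones and unfolded protein response genes gave 15 lower and 1 higher of 23 (median -0.21), but this direction turned with depth. In barcodes under 10000 UMIs in both classes the median of this list was 0.18. *Hspa5*, the main ER chaperone, was at 1511, 1511, and 1538 CPM in WT and 1300, 1085, and 1425 in β14-3-3ζ–KO high-mt barcodes, against 3060, 1668, and 2005 and 1734, 1218, and 1615 in low-mt barcodes (log2 fold change -0.38, FDR 0.00553). The low-mt value of WT library 1 was the highest of the 12, and without that library the log2 fold change was -0.25. Under 10000 UMIs, *Hspa5* was at 0.52 and *Hsp90b1*, at -0.29 otherwise, was at 0.47. Glycolysis genes gave 9 lower and 2 higher of 17 (median -0.15), with *Gapdh* at -0.47, *Aldoa* at -0.22, and *Pkm* at -0.09 (FDR 0.0823).

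All 6 tested 14-3-3 genes were called lower in high-mt barcodes (median -0.29), beside 33.3% of all genes. *Ywhah*, *Ywhae*, *Ywhaq*, *Ywhag*, and *Ywhab* had log2 fold changes of -0.32, -0.29, -0.28, -0.22, and -0.17. The call of *Ywhab* was lost with both libraries numbered 2 left out (-0.0951) and without TMM scaling (-0.0888). *Ywhaz* was at -0.32 (FDR 0.0124), at -0.20 without β14-3-3ζ–KO library 2, and its FDR was 0.0589 by DESeq2. It was lower in 5 of 6 libraries, and in β14-3-3ζ–KO library 1 it was at 52.4 CPM in high-mt against 50.3 in low-mt barcodes. With both libraries numbered 2 left out, *Ywhaz* was at -0.15.

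The largest falls were mainly of immune transcripts, whose levels were highest in the libraries numbered 2. *Ifi27l2a*, *Cd52*, and the antigen presentation genes *H2-Aa*, *H2-Ab1*, *H2-Eb1*, and *Cd74* had log2 fold changes of -2.30, -2.15, -2.10, -2.09, -2.08, and -1.95, and each was lower in the high-mt class of all 6 libraries. Outside the libraries numbered 2, *Ifi27l2a* was near the floor. It was at 1.78 and 0 CPM in high-mt and 2.35 and 0.334 in low-mt barcodes of WT libraries 1 and 3. In β14-3-3ζ–KO libraries 1 and 3 it was at 0.388 and 1.76 against 0.427 and 4.19. *Cd74* was at 17.4, 145, and 11.6 CPM in WT and 16.3, 284, and 44.5 in β14-3-3ζ–KO high-mt barcodes, and at 55.1, 774, and 37.1 and 33.9, 1818, and 92.6 in low-mt barcodes. Its level in both libraries numbered 2 was far above that of the other 4, and its log2 fold change was -1.75 without β14-3-3ζ–KO library 2. Against low-mt barcodes of 5% to 10% mt, *Cd74* was at -0.79, and at -0.54 with at least 5000 UMIs in both classes as well. Without β14-3-3ζ–KO library 2, *Ifi27l2a*, *Cd52*, *H2-Aa*, *H2-Ab1*, and *H2-Eb1* fell below the detection filter and were not tested. The same held against low-mt barcodes of 5% to 10% mt, where the high-mt class was unchanged. These 5 genes thus passed the filter only through the low-mt class, which favoured a fall, so their rank among the falls is descriptive. *Apoe* (-1.24), *Tmsb10* (-1.08), and *Sh3bgrl3* (-1.02) were also among the 10 largest falls. With both libraries numbered 2 left out, *Apoe* was at -1.02, *Tmsb10* at -0.60, and *Sh3bgrl3* at -0.55. *Pdyn*, which encodes the opioid peptide precursor prodynorphin, fell in all 6 libraries, from 362, 197, and 112 and 236, 90.1, and 118 CPM in low-mt to 126, 117, and 44.9 and 94.6, 55.4, and 54.7 in high-mt barcodes (log2 fold change -1.12, FDR 1.86e-06).

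Markers of some other cell types differed between the classes, macrophage markers in the same direction in every library. The summed level of 7 B cell markers was 60.3, 1420, and 17.1 CPM in WT and 16.8, 664, and 26.7 in β14-3-3ζ–KO high-mt barcodes, against 55.1, 2352, and 22.8 and 15.2, 4402, and 69.7 in low-mt barcodes. The 9 macrophage markers summed to 53.4 to 198 CPM in high-mt and 105 to 449 in low-mt barcodes, the 9 endothelial markers to 53.8 to 129 and 67.4 to 397, the 8 T cell markers to 0.622 to 139 and 1.22 to 540, the 5 red blood cell markers to 0.466 to 478 and 0.365 to 1762, and the 12 acinar markers to 38.0 to 360 and 26.3 to 1136. The sum was lower in the high-mt class in 6 of 6 libraries for macrophage, 5 for T cell, 4 for B cell, 3 each for endothelial and red blood cell, and 1 for acinar markers. *Igkc*, an antibody chain, was at -1.43 (FDR 0.00785) and at -0.67 without β14-3-3ζ–KO library 2. No marker on these lists was at 0 in the high-mt barcodes of every library. *Gcg*, *Sst*, *Ppy*, and *Pyy* summed to 10009 to 38871 CPM in high-mt and 13881 to 31903 in low-mt barcodes. The part of these transcripts in the results above was not tested, but with both libraries numbered 2 left out, 5205 genes were called (2784 higher and 2421 lower of 8964), and the medians of cytosolic ribosomal proteins, OXPHOS subunits, and nuclear long noncoding RNAs were -0.49, -0.40, and 0.64. The smaller medians of assembly factors, carriers, p53 and apoptosis genes, glycolysis genes, and β cell identity genes were then -0.20, -0.12, -0.13, -0.07, and 0.09.

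Called genes differed in length, a property the rule did not use. Genes called higher had a median longest annotated transcript of 5127 bases, 14 exons, and a genomic span of 52517 bases. Genes called lower had 2139.5 bases, 5 exons, and 12161 bases, and genes not called 3729 bases, 9 exons, and 29284 bases. Over 5 groups of like size by transcript length, 76.1% of the shortest (183 to 2005 bases) were lower and 4.89% higher, and 5.82% of the longest (5720 bases and more) were lower and 65.3% higher. The median log2 fold change went from -0.31 through -0.10, -0.00, and 0.09 to 0.20, in the same order in each of the 6 libraries. Without the ribosomal protein and OXPHOS genes the shortest group was at -0.29 and the longest at 0.20. Against low-mt barcodes of 5% to 10% mt, with at least 5000 UMIs in both classes, the shortest and longest groups were at -0.16 and 0.10, and under 10000 UMIs in both classes at -0.68 and 0.51. Transcript length was examined after the gene lists had been seen, and these shares are descriptive. How far the counts and medians of the gene lists go with transcript length was not tested.

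**Figure D3:**
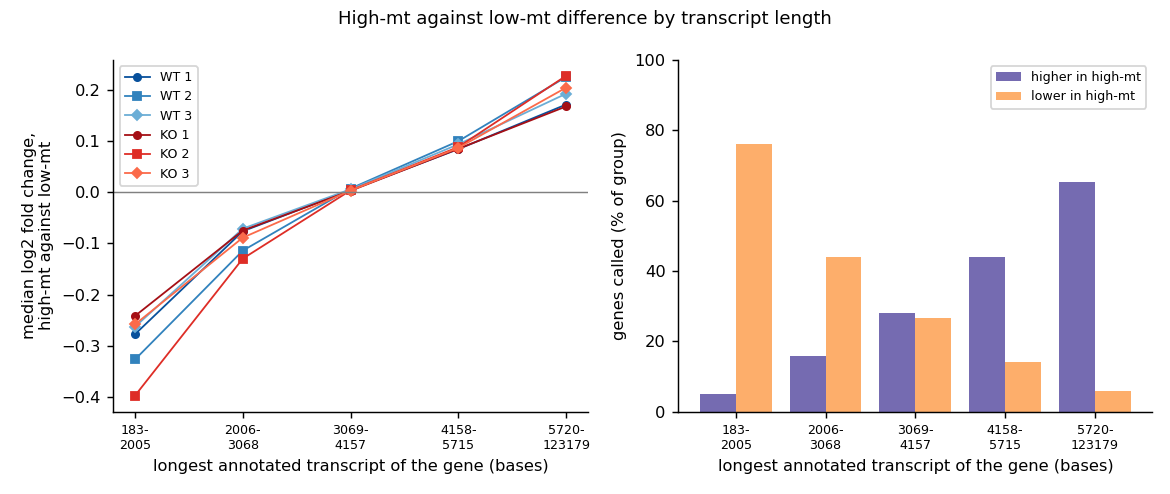
Change in high-mt barcodes by 5 groups of longest annotated transcript (horizontal axes, bases). The left panel gives the median log2 fold change with 1 line per library and the right panel the percent of each group called higher or lower; all 6 lines run upward, and in the fit over all libraries the median goes from -0.31 in the shortest group to 0.20 in the longest.

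Within the high-mt class several of these differences, but not all, were graded with mt share. Values are percents of nuclear non-insulin UMIs, as the median over libraries. From 10% to 15% mt (2045 barcodes) through 15% to 20% (1203), 20% to 30% (1656), and 30% to 40% (1468), cytosolic ribosomal proteins went from 8.39% (range over libraries 7.53% to 10.2%) through 7.27% and 5.79% to 5.14% (4.53% to 7.51%). *Malat1* went from 2.96% (2.60% to 3.55%) through 3.98% and 6.36% to 7.10% (5.00% to 8.36%), so that its ranges at both ends did not overlap. *Meg3* went from 0.34% through 0.42% and 0.54% to 0.64%, OXPHOS subunits from 1.82% through 1.62% and 1.33% to 1.20%, and *Iapp* from 5.14% through 4.57% and 3.65% to 3.09%. The low-mt barcodes nearest to the cut, from 5% to 10% mt, were at 9.66% for ribosomal proteins, 2.001% for OXPHOS subunits, 2.29% for *Malat1*, 0.26% for *Meg3*, and 5.76% for *Iapp*. Depth moved with mt share. Median UMIs per barcode went from 20952 through 8533.25 and 4173 to 3752.25 over the same bins, and its part in the gradient was not tested. The smallest bin of a single library held 23 barcodes, from 30% to 40% mt in WT library 1. Against low-mt barcodes of 5% to 10% mt, with at least 5000 UMIs in both classes, the list medians were smaller but kept their direction, at -0.30 for cytosolic ribosomal proteins, -0.27 for OXPHOS subunits, and 0.43 for nuclear long noncoding RNAs. Under 10000 UMIs in both classes they were larger, at -1.25, -0.71, and 1.44.

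**Figure D4:**
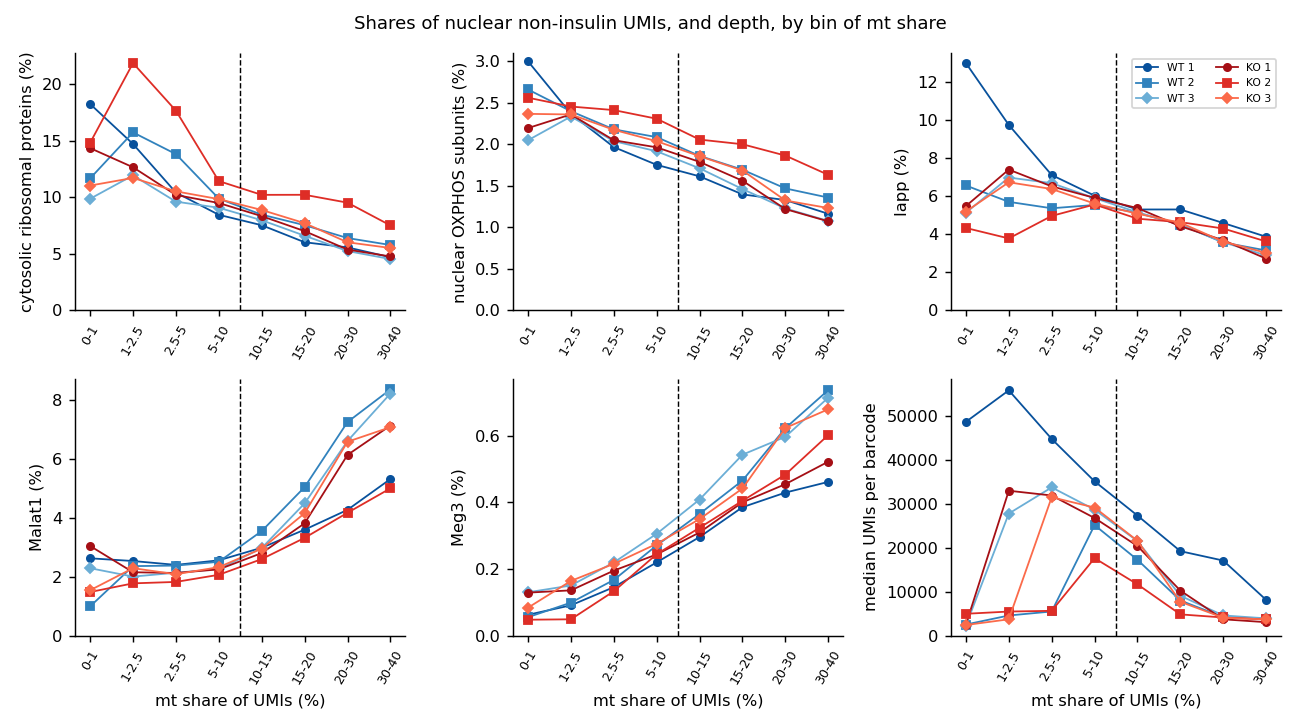
Levels by bin of mt share in insulin-rich barcodes, as percent of nuclear non-insulin UMIs on the vertical axis, or median UMIs per barcode in the last panel, with 1 line per library and a dashed line where the high-mt class starts at 10% mt. From the bin of 10% to 15% to that of 30% to 40%, *Malat1* and *Meg3* are up and cytosolic ribosomal proteins, OXPHOS subunits, *Iapp*, and UMIs are down in each of the 6 libraries.

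The number of genes detected at equal depth differed between the classes by less than its spread over libraries. When each barcode was thinned to 500 nuclear non-insulin UMIs, high-mt barcodes held 367.8 detected genes and low-mt barcodes 374.4, as means over libraries. The difference was -6.68 genes (SD 15.7, n = 6), lower in 3 of 6 libraries (2-sided exact sign-flip test p = 0.406).

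The make-up of the mitochondrial transcripts themselves differed by at most 0.91 percentage points from that of low-mt barcodes, as means over libraries. The rule fixed their sum but not the share of each of the 13 mRNAs. *mt-Co3* took the largest share of mitochondrial UMIs, 19.1% in high-mt and 18.2% in low-mt barcodes, as means over libraries. *mt-Co1* was at 15.99%, 14.1%, and 15.4% in WT and 14.0%, 10.6%, and 14.8% in β14-3-3ζ–KO high-mt barcodes, against 16.97%, 15.1%, and 16.2% and 14.8%, 11.8%, and 15.4% in low-mt barcodes. It was lower in 6 of 6 libraries, by amounts smaller than the spread between libraries. *mt-Cytb*, *mt-Nd5*, *mt-Nd4l*, and *mt-Atp8* were also lower and *mt-Co2* and *mt-Nd3* higher in 6 of 6 libraries, each by less than 0.5 percentage points on average. For these 7 the exact sign-flip p was 0.031, the smallest that 6 libraries allow, and the adjusted p over the 13 was 0.058, so 0 of 13 passed.

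*Ins1*, the product of the retrotransposed insulin gene of mice, made up less of the insulin UMIs in high-mt than in low-mt barcodes of the same library. The share was 16.9%, 25.7%, and 24.8% in WT and 14.4%, 14.7%, and 13.8% in β14-3-3ζ–KO high-mt barcodes, and 17.9%, 27.4%, and 26.7% and 15.6%, 14.9%, and 15.4% in low-mt barcodes. High-mt minus low-mt was -1.27 percentage points (SD 0.608, n = 6), lower in 6 of 6 libraries (2-sided exact sign-flip test p = 0.03125, the smallest possible). Against low-mt barcodes of 5% to 10% mt it was -0.66 percentage points. Between genotypes the groups did not overlap, and the high-mt share was 22.4% ± 4.85 in WT and 14.3% ± 0.494 in β14-3-3ζ–KO (SD, n = 3 each). With 3 libraries against 3, an exact permutation test cannot go below 0.1, which this difference of -8.15 percentage points reached.

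The targeted gene checked the labels in the high-mt class. *Ywhaz* (chr15:36770770-36796929) was at 252, 261, and 262 CPM in WT and 54.5, 69.4, and 48.8 in β14-3-3ζ–KO high-mt barcodes, scaled over the 6 high-mt sums. All 3 β14-3-3ζ–KO values lay below all 3 WT values (258 ± 5.20 and 57.6 ± 10.6, SD, n = 3 each), with a log2 fold change of -2.16 (SE 0.124, FDR 3.03e-04, edgeR). Reads from 3′ libraries come mainly from the end of a transcript and show its level, not the deletion of exon 4. A *Ywhaz* UMI was found in 86.9%, 48.1%, and 53.6% of WT and 29.1%, 18.6%, and 20.2% of β14-3-3ζ–KO high-mt barcodes. Thinned to 2000 UMIs per barcode, the shares were 24.9%, 19.2%, and 19.3% and 6.44%, 5.73%, and 4.72%. The other 14-3-3 genes had log2 fold changes from 0.01 to 0.14 between genotypes (FDR 0.927 to 0.997).

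The share of insulin-rich barcodes in the high-mt class overlapped between genotypes. Of the insulin-rich barcodes at or under 40% mt, 28.3%, 22.1%, and 34.6% were above 10% mt in WT and 27.2%, 29.8%, and 34.4% in β14-3-3ζ–KO libraries. The groups had means of 28.3% ± 6.22 and 30.5% ± 3.65 (SD, n = 3 each), a difference of 2.15 percentage points, and an exact permutation p of 0.7. With at least 5000 UMIs per barcode the difference was -6.34, and without WT library 2 it was -0.94.

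Between genotypes within the high-mt class, *Ywhaz* was the 1 gene of 7015 tested that passed by edgeR without a block (0.0143%), and 316 genes had an unadjusted p under 0.05. Genes whose 3 β14-3-3ζ–KO values all lay above the 3 WT values numbered 387 (5.52%), and those with all below 362 (5.16%). Of 13 carrier, VDAC, and calcium uniporter genes, 4 were higher in this sense, and of 23 ER chaperone and unfolded protein response genes, 5 were lower. Cytosolic ribosomal proteins had the most, 28 higher and 0 lower of 79 (median log2 fold change 0.32, beside -0.01 over all genes). OXPHOS subunits gave 11 higher and 0 lower of 79 (median 0.21), mitochondrial ribosomal proteins 11 and 0 of 66 (0.15), and assembly factors 5 and 1 of 24 (0.10). By edgeR, with or without the replicate block, no member of these 6 lists passed the FDR. With the replicate number as a block, 11 genes passed, 2 higher and 9 lower in β14-3-3ζ–KO. *Egr1*, an immediate early transcription factor, was at 321, 316, and 259 CPM in WT and 194, 223, and 170 in β14-3-3ζ–KO libraries (log2 fold change -0.61, FDR 0.00333 with the block and 0.927 without). The groups did not overlap. Without the block, DESeq2 called 3 genes, *Ywhaz*, *Egr1* (-0.60, FDR 0.0310), and *Gm10076* (-0.87, FDR 0.0247). *Apoe* was higher in each β14-3-3ζ–KO library than in the WT library of the same number, at 44.2, 207, and 74.9 against 30.4, 93.9, and 38.7 CPM. Its log2 fold change was 0.94 (FDR 0.00149 with the block and 0.927 without), although the groups overlapped and the labels do not give the pairing. The others were *Snrpf* (0.42), *Spp1* (-1.08), *Gm10076* (-0.85), *Snhg11* (-0.69), *Anxa11* (-0.56), *St8sia1* (-0.56), *Itpr2* (-0.50), and *Dlgap1* (-0.45), named after their values were seen.

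**Figure D5:**
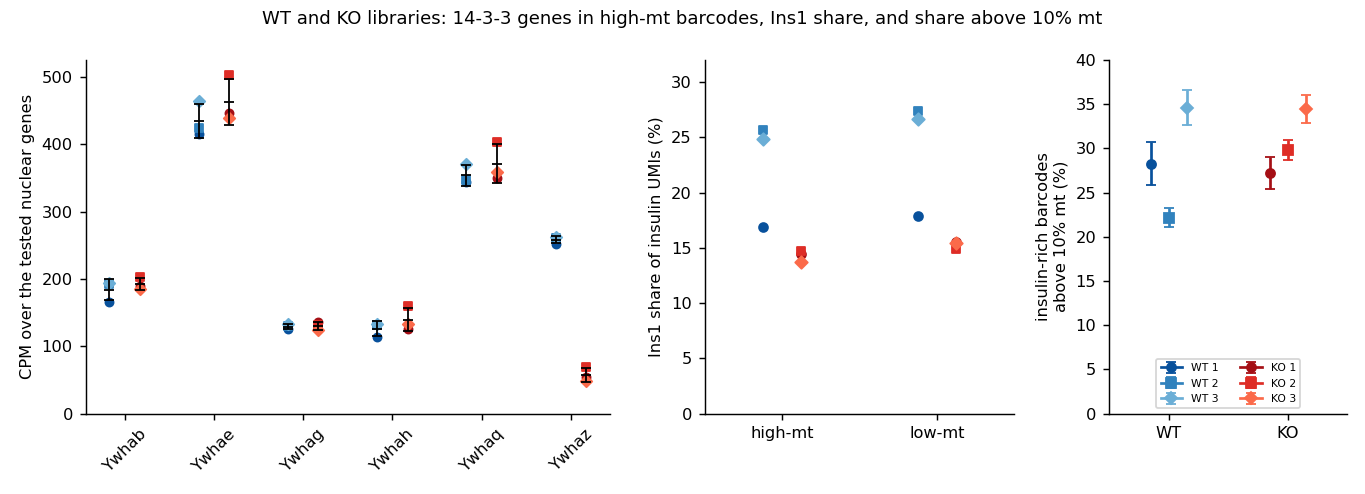
Genotype comparison with 1 point per library (3 WT in blue and 3 β14-3-3ζ–KO in red): CPM of the 14-3-3 genes in high-mt barcodes with the mean and SD in black (left), *Ins1* as percent of insulin UMIs in both classes (middle), and the percent of insulin-rich barcodes above 10% mt with its Wilson 95% binomial interval, which covers counting error only (right). WT and β14-3-3ζ–KO libraries are separate for *Ywhaz* and *Ins1* and overlap for the share above 10% mt.

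Whether the genotype difference itself differed between high-mt and low-mt barcodes was tested as an interaction. Of 7787 genes, 0 (0%) passed by edgeR, 136 had an unadjusted p under 0.05, and the lowest FDR was 0.9998. DESeq2 gave 0 as well, with 19 genes at an unadjusted p under 0.05.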

How the data were processed

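Islets of 6 mice, 3 WT and 3 β14-3-3ζ–KO, gave 1 single-cell RNA-Seq library each, with the Chromium 3′ kit (v3.1). The deposited values are counts of UMIs per gene and barcode, without normalization, which the authors made with Cell Ranger 6.0.2 on mm10, per the labels; their notes also name Seurat. Whether intronic reads were counted is not given in the sources used here, which bears on long genes and nuclear RNAs. A barcode is not a replicate; samples are libraries. The study removed β14-3-3ζ–KO β cells that kept *Ywhaz*; here they were kept, and their removal was an alternative. The members and gene lists were chosen with earlier results of these data known, so no list stands as independent support.

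UMIs were summed per library and class (12 sums), leaving out mitochondrially encoded genes, *Ins1*, and *Ins2*. Genes detected in over 15% of the barcodes of either group were tested by edgeR 4.0.16 (quasi-likelihood, TMM, limma 3.58.1, R 4.3.3) with the library as a block for high-mt against low-mt barcodes and without a block between genotypes. Libraries of the high-mt class held 5168965 to 9157231 such UMIs. Thresholds were FDR under 0.05 and absolute log2 fold change above 0.1. Single values were compared by 2-sided exact permutation tests. No doublets were removed; Scrublet, whose automatic threshold marked under 0.5% of barcodes, was used only through its highest scores (0.8% per 1000 barcodes), in scanpy 1.11.5 and Python 3.11.15. Scripts were tested on simulated data. Gene positions and lengths are from an annotation of GRCm38 that matched 32235 of 32285 identifiers (99.8%).

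Named genes were the 10 largest rises and 10 largest falls among called genes with the same direction in all 6 libraries and a mean of at least 50 CPM, *Iapp*, *Malat1*, *Neat1*, *Meg3*, *Uqcc2*, *Atp5g1*, *Ndufa4*, *Smdt1*, the 14-3-3 genes, the 13 mitochondrially encoded mRNAs, and up to 4 members of each list with the highest CPM. Others are said to be picked after their values were seen or to be named outside this rule. The labels do not say what a replicate number shares. Deviations from the group means correlated over genes between WT and β14-3-3ζ–KO libraries of the same number, with r of 0.555, 0.498, and 0.254 for numbers 1, 2, and 3. The replicate block therefore rests on a pairing inferred from these same data, and its results are given beside those without it. Alternatives changed the mt, insulin, and UMI limits, doublets, scaling, tool (DESeq2 1.42.0), filter, block, and libraries; the combination of 5% to 10% mt with 5000 UMIs, the omission of both libraries numbered 2, and 2 alternatives for *Ywhaz* were chosen after seeing the data.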

Additional observations from a re-analysis of the deposited data

Results flagged for a closer look

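*Btg2*, an antiproliferative immediate early gene, was set apart because its difference between high-mt and low-mt barcodes went one way in every WT library and the opposite way in every β14-3-3ζ–KO library. The mean log2 difference was 0.07 in WT and -0.16 in β14-3-3ζ–KO, so that β14-3-3ζ–KO minus WT was -0.22. The interaction term of edgeR for this gene had an unadjusted p of 0.0244 and an FDR of 0.9998, so the difference between genotypes did not pass.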

How the results depend on the processing

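The medians of cytosolic ribosomal proteins, OXPHOS subunits, mitochondrial ribosomal proteins, β cell identity genes, splicing factors, and nuclear long noncoding RNAs kept their direction under every alternative run. Genes called between classes numbered 4470 to 5096 when 1 library was left out, 2149 of 3027 tested under 10000 UMIs, and 7673 of 24689 without the filter. Medians above 0 were found for ER genes under 10000 UMIs (0.18), for granule genes under 10000 UMIs (0.47) and without TMM (0.0288), for mitochondrial chaperones without TMM (0.0139), for mtDNA expression genes against 5% to 10% mt (0.0489), with 5000 UMIs as well (0.0193), under 10000 UMIs (0.24), and without TMM (0.00495), and for fusion and mitophagy genes at 5000 UMIs (0.0391), without TMM (0.0416), and without both libraries numbered 2 (0.00471). *Hspa5* and *Hsp90b1* were at 0.52 and 0.47 under 10000 UMIs, and *Ppy*, at -0.81 in the fit as reported, was at 0.55 without barcodes with other hormones. *Ppy* was itself 1 of the hormones that chose those barcodes, so its value there is no check on its direction. Between genotypes, 0 genes were called under 10000 UMIs, 3 by DESeq2, and 11 with the replicate block, and the log2 fold change of *Ywhaz* under 10000 UMIs was -1.33 (FDR 0.347). Interaction calls numbered 1 above 20% mt, 2 against 5% to 10% mt, and 3 with 5000 UMIs as well. They numbered 2 without high Scrublet scores and 26 without the filter. *Ighm* was called in each of these settings but the last, which was not examined by gene. Beside it were *Ctrb1* against 5% to 10% mt, *Apoe* and *Fabp5* with 5000 UMIs as well, and *Igkc* without high Scrublet scores. *Ighm* and *Igkc* encode antibody chains and were highest in the libraries numbered 2. The share above 10% mt differed by -6.34 points at 5000 UMIs, by -0.60 without both libraries numbered 2, and by -0.94 to 5.28 with 1 library left out; its replicate block p was 1. *Ins1* share, high-mt minus low-mt, was -0.66 points against 5% to 10% mt and -1.48 to -1.16 with 1 library left out, where 0.0625 is the smallest p possible. The replicate block changed no other call; for the *Ins1* share between genotypes its p was 0.25, the smallest of 3 pairs. The cause of these changes was not tested. Shallow barcodes limit precision for single genes.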

Other observations

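Among the 58 tested genes annotated as lincRNAs, 30 (51.7%) were higher and 16 (27.6%) lower in high-mt barcodes, with a median log2 fold change of 0.15, against 31.4% and 33.2% of 7427 protein-coding genes. *Gm42418* was among the most abundant transcripts of both classes, with a mean of 44459 CPM in high-mt and 29694 CPM in low-mt barcodes (log2 fold change 0.59, FDR 0.00454, edgeR), and *Lars2*, which encodes the mitochondrial leucyl-tRNA synthetase, rose by 0.88 (FDR 8.12e-07). Both genes were picked out after their values were seen.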
